A study of Homo sapiens with 18 samples.

Results

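The enrichment of STARR-seq output over the input library was examined at every enhancer of the deposited peak lists. The lists hold 94527 enhancers, and all of them were used. One list gives those that overlap a DNase I site (open, 11980 enhancers in 12971 rows) and the other those that do not (closed, 82547 enhancers). The input was 1 plasmid library, and the output came from 2 replicates of LNCaP cells electroporated with that library. LNCaP is an androgen-sensitive line grown from a human prostate carcinoma, and the cells received no drug. They were kept in medium with charcoal-stripped serum and harvested after 72 h. For comparison, ATAC-seq peaks and average mRNA levels came from other LNCaP cultures treated for 24 h with trichostatin A (TSA), a histone deacetylase inhibitor, at 100 ng/ml or with DMSO vehicle. The inserts were sheared human genomic DNA, so an allele of LNCaP itself was not what was tested, and every fragment sat on a plasmid behind the SCP1 minimal promoter. Peaks were called by the authors on both replicates combined, so the spread between replicates is unknown for each enhancer, and all comparisons below are descriptions of 1 pooled measurement without a test.

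In STARR-seq a genomic fragment lies inside the transcribed part of a reporter, so a fragment that acts as an enhancer is copied into the reporter RNA. Short DNA words are bound by transcription factors. p53 is a stress-activated tumour suppressor that binds a pair of like DNA elements, AP-1 is a dimer of JUN and FOS proteins that responds to growth signals and stress, and ETS, SP/KLF, CREB and NRF1 proteins bind close to the starts of many widely expressed genes. In these bulk RNA pools, more cells transcribing a fragment and more transcript per cell cannot be told apart.

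Sequences below are the plus strand of hg19 (GRCh37), and capitals mark the motif. The first pair, shown for their tandem AP-1 words (TGANTCA, both strands), are the strongest enhancer of all, 32.2 kb upstream of NID1, and the third strongest, 180 kb upstream of CNTN6.
NID1 upstream, chr1:236260461-236260760: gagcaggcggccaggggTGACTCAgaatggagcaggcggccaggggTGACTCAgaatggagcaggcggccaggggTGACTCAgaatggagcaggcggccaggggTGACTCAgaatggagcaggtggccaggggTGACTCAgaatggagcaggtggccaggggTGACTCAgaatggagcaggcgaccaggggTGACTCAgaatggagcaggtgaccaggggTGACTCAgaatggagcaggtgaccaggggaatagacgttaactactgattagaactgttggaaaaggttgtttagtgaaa
CNTN6 upstream, chr3:954508-954807: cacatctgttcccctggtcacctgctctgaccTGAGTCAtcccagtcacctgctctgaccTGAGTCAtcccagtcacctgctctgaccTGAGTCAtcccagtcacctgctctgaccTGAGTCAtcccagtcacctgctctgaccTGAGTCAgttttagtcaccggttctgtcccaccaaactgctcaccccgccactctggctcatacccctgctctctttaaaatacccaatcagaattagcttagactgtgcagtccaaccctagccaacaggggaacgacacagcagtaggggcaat

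The second set is shown for the p53 site, in capitals, in strong enhancers outside the list of p53 target genes used here. The second strongest enhancer of the list lies upstream of BIRC8, which encodes an inhibitor of apoptosis family member. The next 3 sequences come from different chromosomes and belong to 1 family of related sequence, and the last 2 belong to another.
BIRC8 upstream, chr19:53798500-53798559: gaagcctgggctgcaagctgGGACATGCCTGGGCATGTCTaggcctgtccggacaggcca
SYNE1 intron, chr6:152543110-152543169: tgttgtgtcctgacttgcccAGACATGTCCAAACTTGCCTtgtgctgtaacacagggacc
CLRN3 downstream, chr10:129661609-129661668: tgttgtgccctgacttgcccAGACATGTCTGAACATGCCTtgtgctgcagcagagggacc
NMUR2 upstream, chr5:152191704-152191763: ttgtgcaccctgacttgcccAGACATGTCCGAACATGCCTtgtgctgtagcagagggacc
NEO1 intron, chr15:73458271-73458330: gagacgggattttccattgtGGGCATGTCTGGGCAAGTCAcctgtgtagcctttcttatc
chromosome 21, chr21:21964906-21964965: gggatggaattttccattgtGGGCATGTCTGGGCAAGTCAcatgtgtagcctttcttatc

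The third set is shown for named regulators of the p53 response. CDKN1A encodes the cell cycle inhibitor p21, MDM2 the ubiquitin ligase that degrades p53, GADD45A a DNA damage response protein and MIR34A a microRNA that lowers cell cycle genes.
CDKN1A, chr6:36644221-36644250: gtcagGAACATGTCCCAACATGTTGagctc
MDM2, chr12:69202683-69202742: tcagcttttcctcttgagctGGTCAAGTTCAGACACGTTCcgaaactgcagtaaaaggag
GADD45A, chr1:68152438-68152497: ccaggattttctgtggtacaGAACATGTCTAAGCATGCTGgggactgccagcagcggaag
MIR34A, chr1:9242198-9242227: gctcgGAACAAGCCCAGGCAAGCCCaggca

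The last set is shown for promoters of other responses. IFIT2 is an interferon-induced gene and its capitals are 2 matches to the interferon-stimulated response element (ISRE). NQO1 is an antioxidant enzyme and its capitals are an AP-1 word, and RPL18 encodes a ribosomal protein and its capitals are the cyclic AMP response element (CRE, TGACGTCA).
IFIT2, chr10:91061670-91061729: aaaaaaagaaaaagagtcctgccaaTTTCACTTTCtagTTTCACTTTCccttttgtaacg
NQO1, chr16:69760900-69760929: ctcagattctgcTGAGTCActgtgactgcg
RPL18, chr19:49122459-49122518: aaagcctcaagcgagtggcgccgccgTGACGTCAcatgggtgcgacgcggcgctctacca

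At the summit of each enhancer, the output fragments and the scaled input could be recovered from the deposited fold and p-value. Scaled input is the number of output fragments that the input library would predict there. Over all enhancers the summit held 18 to 7448 output fragments, with quartiles of 37 and 62 and a 99th percentile of 199. Scaled input had quartiles of 10.1 and 20.8 and a 99th percentile of 40.5. The bulk of the list thus rests on counts within a narrow range, and the large folds on a thin upper tail. The 7 enhancers nearest to the q-value threshold, with a −log10 q-value from 1.33 to 1.4, had 22 to 56 output fragments and folds of 1.47 to 1.84.

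**Figure D1:**
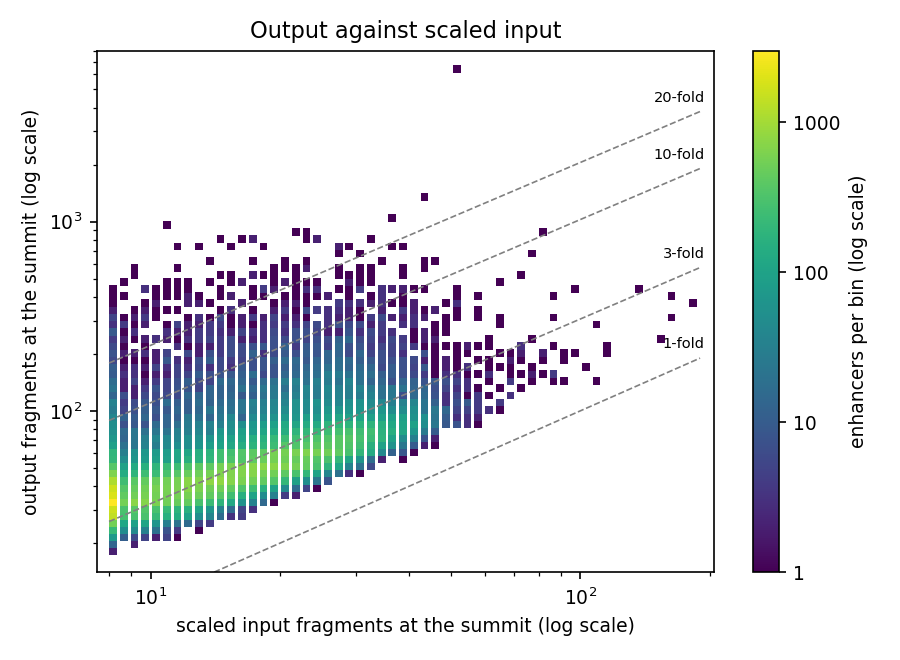
Output fragments (vertical axis) by scaled input (horizontal axis) at the summit of enhancers with a scaled input of up to 200, both on log scales, with color for the number of enhancers per bin on a log scale. Dashed lines mark folds of 1, 3, 10 and 20, the leftmost column holds the enhancers at the genome background of 8.40, and the single point near the top is the enhancer upstream of NID1.

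The depth of the libraries could be estimated from the same values. The lowest scaled input was 8.40, the genome background that the peak caller puts in place of a lower local input, and 13423 enhancers (14.2%) stood at it. The smallest enhancer width was 480 bases, shared by 27348 enhancers, which matches the mean fragment length if the peak caller ran with its defaults. With a genome size of 2700 Mb, that background corresponds to 47200000 output fragments over both replicates. Above the background, 66.9% of enhancers had a scaled input on a grid with a step of 0.149, where 2.69% would lie from the width of the match alone. A further 23.3% lay on the grid of the 1 kb window, where 2.80% would lie. If each step is 1 end of an input fragment, the input library held 159000000 fragments, 3.36 for each output fragment. The background then corresponds to 56.4 input fragment ends, and enhancers on the grid had a median of 112. These totals are estimates that rest on the default settings, and they are not read counts.

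The lowest fold in the list changed with the level of the input. At the genome background the lowest fold in the list was 2.02 and the median was 3.72. With a scaled input of 12 to 20 they were 1.71 and 2.93, and from 20 to 40 they were 1.47 and 2.53. Both thus fell as the input rose over these levels. The q-value cutoff of the peak calling admits lower folds at a higher input, so the lowest fold is set by the calling. The part of this cutoff in the medians was not tested. In the whole list 35957 of 94527 enhancers (38.0%) had a q-value under 1e-10, which is the background for the shares that follow. The share was 37.2% at the genome background, 36.1% from 12 to 20 and 46.8% from 40 to 100. Open enhancers made up 1.21% of those at the genome background, 31.3% of those from 20 to 40 and 63.2% of those from 40 to 100. The median GC content rose along the same levels from 44% to 55% and 61.7%, and its part in these shares was not tested.

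The largest output counts were not the largest folds. The summit with the most output, 7448 fragments, lies on chromosome 7 at chr7:61968765-61969806, far from any gene start, and its scaled input of 2883 leaves a fold of 2.58. On chromosome 6 3230 output fragments stood against 1432, a fold of 2.25, and on chromosome 1 2950 against 1110, a fold of 2.66. The 25 enhancers with a scaled input over 100 had a median of 1.99-fold. By contrast, the enhancer upstream of NID1 had 6340 output fragments against 52.2, a fold of 119. The exact 95% Poisson interval of its output count, with the scaled input held fixed, gives folds of 116 to 122. An enhancer on chromosome 8 at chr8:86733710-86734789 had 4798 output fragments against 423, a fold of 11.3. Counting intervals cover counting error only, and this interval leaves out that of the input. The authors collapsed duplicates within each indexing library and kept those between indexing libraries, so 1 insert can be counted more than once and the output fragments are not independent molecules. Reads were kept where they mapped to 1 place.

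Matches to the p53 site increased with fold more than those of any other motif searched. The site was taken as 2 adjoining elements of 10 bases, without a spacer and with up to 2 mismatches, a definition chosen after its values were seen. It was present within 300 bases around the summit in 2.15% of enhancers under 3-fold, 4.24% from 3 to 5-fold, 22.2% from 5 to 10-fold, 54.8% from 10 to 20-fold and 71.4% (145 of 203) at 20-fold and over. Of 285841 windows of equal length spaced every 10 kb over the genome, 0.779% held it, and of the flanks 5 kb from each summit 0.774%. The site was thus more frequent than in the grid windows in every class. With an exact match and up to 13 bases between the elements, the shares were 0.155%, 0.267%, 3.03%, 15.98% and 33.5% over the same classes, against 0.0329% of the grid windows.

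**Figure D2:**
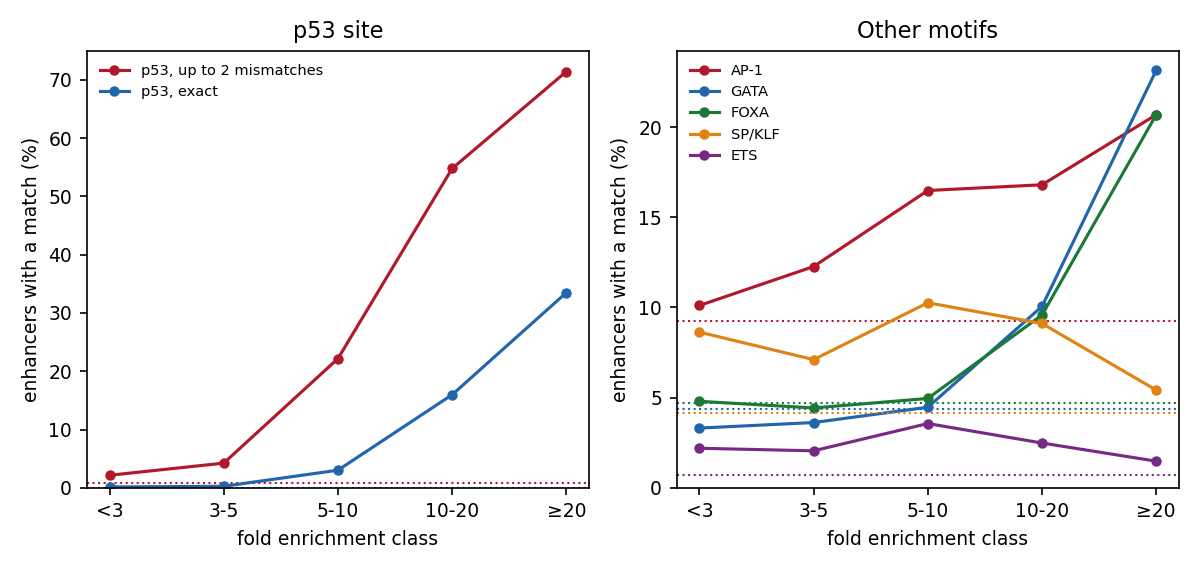
Percent of enhancers with a motif within 300 bases around the summit by fold class, for the p53 site at left and 5 other motifs at right, with dotted lines at the percent of grid windows that hold each motif. The p53 site with up to 2 mismatches rises from 2.15% to 71.4%, whereas ETS ends at 1.48% and SP/KLF at 5.42%.

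The median fold fell with each mismatch. The 336 enhancers with a perfect p53 site had a median of 9.06-fold, the 1039 with 1 mismatch 5.77, the 3310 with 2 mismatches 3.86, and the 10488 with 3 mismatches 3.28, close to the median of 3.08 over all enhancers. The sites also lay at the summits. Among the 6798 enhancers of 5-fold and over, 1867 p53 sites fell within 100 bases of a summit and 207 from 500 to 1000 bases away, which is 45.1 times as many per base. For AP-1 the ratio was 2.56, for ETS 5.38, for CRE 8.70 from 40 and 23 matches, and for NRF1 25.5 from 51 and 10 matches. SP/KLF had a ratio of 1.98 and the NFY word (CCAAT) 0.839, so CCAAT was slightly less frequent at summits than around them.

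**Figure D3:**
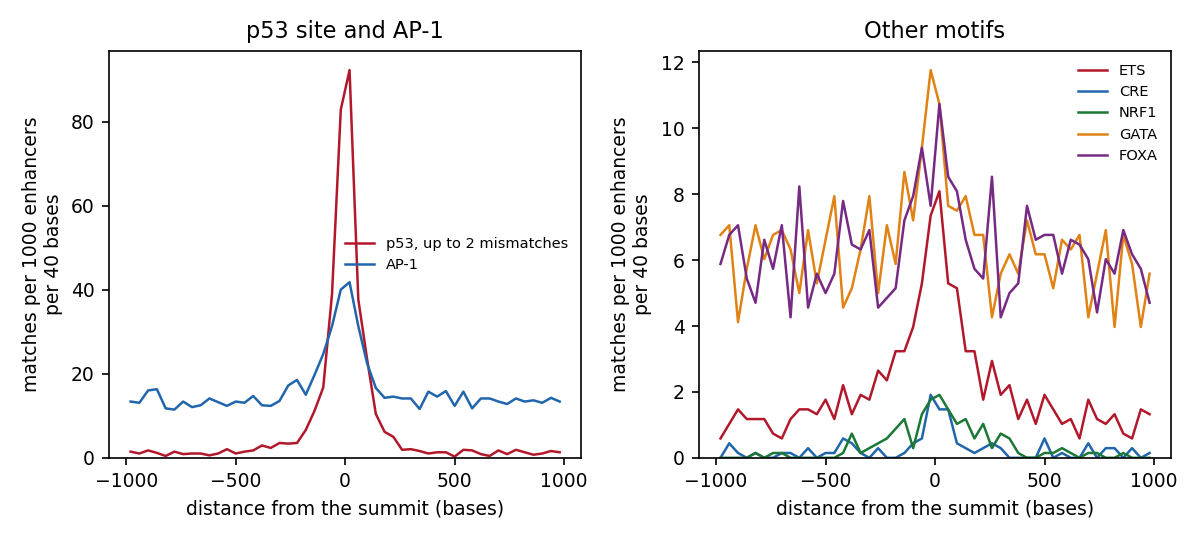
Motif matches per 1000 enhancers in bins of 40 bases by distance from the summit, for the 6798 enhancers of 5-fold and over. The p53 site and AP-1 at left peak at the summit, with 1867 and 1171 matches within 100 bases, and ETS, CRE, NRF1, GATA and FOXA at right peak there with 332 or fewer.

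Strong enhancers with a p53 site were mainly in closed chromatin, as was the list as a whole. Of 1048 enhancers of 10-fold and over, 608 (58.0%) held a p53 site with up to 2 mismatches. Of these 608, 59 (9.70%) were open and 30 (4.93%) overlapped an ATAC-seq peak called after DMSO vehicle, against 12.7% and 6.26% of all enhancers. The other 440 strong enhancers were open in 31.1% and in a vehicle ATAC-seq peak in 19.5%. Within 1 kb of a gene start lay 3.13% of the former and 18.4% of the latter. The median distance from a p53 enhancer of 10-fold and over to the nearest gene start was 69.0 kb. Among strong enhancers, 64.4% of the 852 closed ones held the site and 30.1% of the 196 open ones. The 608 with a p53 site had a median scaled input of 12.4. In the whole list, 2.64% of enhancers with a scaled input above the genome background to 12 were open, and 8.25% of those from 12 to 20. The part of the input level in these shares was not tested.

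AP-1 words were common at every fold. The word TGANTCA was found in 10.1% of enhancers under 3-fold, 12.3% from 3 to 5-fold, 16.5% from 5 to 10-fold, 16.8% from 10 to 20-fold and 20.7% at 20-fold and over, against 9.25% of grid windows. Among the 26 open enhancers of 20-fold and over it was in 11 (42.3%), and among the closed ones in 17.5%. The median fold rose with the number of copies. Enhancers without the word had a median of 3.06-fold, those with 1 copy 3.19, with 2 copies 3.41, with 3 copies 3.83, with 4 copies 5.55 and with 5 or more copies 5.77. Of the 29 enhancers with 5 or more copies, 11 (37.9%) reached 10-fold, against 1.03% of those without. Some of these 11, including those upstream of CNTN6 and CD163, belong to 1 family of related sequence and are not independent of each other. The sequence upstream of NID1 printed above has 8 copies in tandem repeats of 1 unit, and that upstream of CNTN6 has 5. AP-1 was also more frequent in strong enhancers without a p53 site (27.3% of 440) than with it (10.5% of 608).

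Other motifs had smaller shares or other directions. The GATA factor motif, spelled AGATAAG, went from 3.31% under 3-fold to 23.2% at 20-fold and over, against 4.36% of grid windows, and FOXA (TGTTTAC), bound by pioneer factors of the prostate epithelium, from 4.80% to 20.7% against 4.68%. Both climbs took place above 10-fold. For GATA the climb was in closed enhancers, from 3.55% to 26.6%, while open enhancers had 2.11%, 1.97%, 1.46%, 1.18% and 0% over the 5 classes, the last of 26 enhancers. The TATA word (TATAAA) was in 13.5% of enhancers and 29.8% of grid windows, and the octamer word (ATGCAAAT, POU) in 1.47% and 3.09%. The androgen response element was in 0.242% of enhancers and in none of those of 20-fold and over, against 0.164% of grid windows. The strongest enhancer that held it, on chromosome 18 in an intron of ZBTB7C, had a fold of 11.96 and also a p53 site with 1 mismatch. The heat shock element was in 0.350% of enhancers and 0.420% of grid windows.

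Strong enhancers came in families of related sequence. Enhancers of 10-fold and over were linked when their 300-base windows shared at least 25 words of 14 bases. Of 1048, 392 (37.4%) fell in 41 families of 2 or more, and 298 in the 10 families with 10 or more members. At 20-fold and over, 122 of 203 were in a family. Members of a family are copies of related sequence and are not independent of each other. The p53 site with up to 2 mismatches was in 72.2% of enhancers in a family and in 49.5% of the 656 outside any, so it was frequent in both. Open chromatin was at 4.08% of the former and 27.4% of the latter.

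The families differed in their motifs. The largest had 98 members on 18 chromosomes, a median of 15.1-fold and a p53 site in 94, with GATA in 43.9% and FOXA in 40.8%. The next had 64 members on 21 chromosomes, all closed, with a median of 17.5-fold, a p53 site in 59 and GATA in 84.4%, and includes the sequences in NEO1 and on chromosome 21. The third, with 36 members and a median of 18.1-fold, held no p53 site but AP-1 in 97.2% and FOXA in 72.2%, and includes the sequence upstream of CNTN6. The family of the sequences in SYNE1, downstream of CLRN3 and far upstream of NMUR2 had 16 members and a median of 29.4-fold. All 16 had a p53 site and none was open.

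Related sequence also occurred in weaker enhancers. Enhancers outside a family were assigned to it if they shared 25 words with 1 of its members, and since families hold every linked enhancer of 10-fold and over, these were all under 10-fold. Of all 93479 enhancers under 10-fold, 6.15% were of 5-fold and over, and their median was 3.07-fold. For the largest family 65 of 121 such enhancers (53.7%) were of 5-fold and over, for the next 23 of 60 (38.3%), and for the AP-1 family 31 of 62. The family in SYNE1 had none outside its members. In 2 families with 11 members each the shares were 38.3% of 128 and 20.1% of 348. The family with 13 members had 4341 related enhancers, with a median of 3.37-fold and 5.57% at 5-fold and over, and its sequence was in 48.4 of every 1000 grid windows. The largest family was shared by 0.0630 of every 1000 grid windows. GATA and FOXA, whose shares climbed above 10-fold, are also the motifs of the largest families, so their matches there are not independent. The same holds for AP-1 in its family.

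Around gene starts the enhancers were a different group. Summits within 1 kb of a start numbered 5126 (5.42%), and made up 32.4% of open and 1.51% of closed enhancers. Open summits were densest in the 100 bases downstream of the start, with 997, and in the 100 bases upstream, with 911. Closed summits had a small peak in the same bins, with 137 and 129. Of the summits within 1 kb of a start, 59.2% had a q-value under 1e-10. The genes next to them had a median of 4.78 on the log2 CPM scale (reads normalised for depth, averaged by the authors over the libraries of their comparison, TSA-treated ones included) against 3.29 over genes with a start and 2.94 over the whole table.

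**Figure D4:**
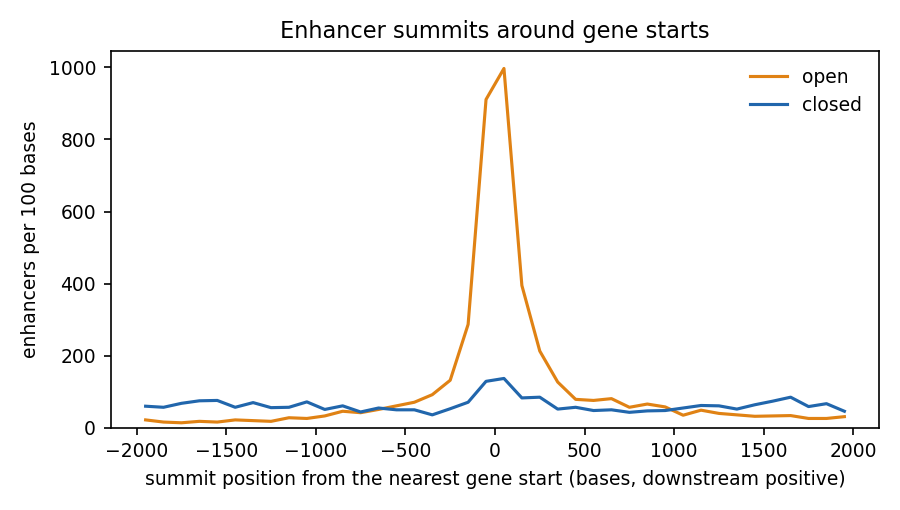
Number of enhancer summits per 100 bases by position relative to the nearest gene start, downstream positive, for open and closed enhancers. Open summits peak at 997 just downstream of the start, and closed summits reach 137 in the same bin.

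Several promoter motifs were more frequent in these enhancers. SP/KLF (GGGCGG) was in 40.2% of enhancers within 1 kb of a start and 6.18% of those beyond, ETS (CCGGAAG) in 15.6% and 1.44%, NRF1 in 6.28% and 0.0817%, CRE in 2.54% and 0.171%, and ZNF143 in 1.79% and 0.0235%. Those with the motif had slightly higher folds than those without. The medians were 3.44 and 3.10 for CRE, 3.36 and 3.06 for ETS and 3.21 and 3.03 for SP/KLF. The NFY and TATA words were less frequent near starts, in 27.5% within 1 kb against 33.8% beyond and 5.38% against 13.9%. The part of GC content in these shares was not tested. Among the 678 enhancers of 5-fold and over within 1 kb of a start, ETS was in 19.9%, ISRE in 7.37% and CRE in 3.98%. Among the 2334 under 3-fold the shares were 12.2%, 3.04% and 1.80%. The strongest enhancer that held NRF1 lies at the start of RPS15, a ribosomal protein gene, with 21.3-fold, and the strongest with ZNF143 lies 188 bases upstream of a start of MRPL24, a mitochondrial ribosomal protein gene, with 7.73-fold.

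In base composition, the median GC content of 300 bases around the summit was 59.0% for open and 47.7% for closed enhancers, against 40% for the grid windows. At least 10 CpG dinucleotides were found in 44.8% of open enhancers, 5.24% of closed enhancers and 4.42% of grid windows. Closed enhancers thus stood above the grid in GC content but close to it in CpG.

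Of 100 enhancers of 10-fold and over within 1 kb of a gene start, 84 were open and 19 held a p53 site with up to 2 mismatches. The genes named in this paragraph beside CDKN1A and MDM2 were chosen after their values were seen. CDKN1A had the highest fold, 36.6. TMEM30A (33.7), a subunit of phospholipid transporters, had a closed enhancer with a perfect p53 site, and MDM2 reached 27.4. At GDF15, which encodes a stress-induced cytokine, 448 output fragments stood against 23.2, an 18.5-fold closed enhancer with a p53 site of 1 mismatch. Strong promoter enhancers without a p53 site include those of SRSF11, a splicing factor (21.1), YWHAE, a 14-3-3 protein (16.3), ID1, an inhibitor of differentiation with a CRE (15.1), and RPL29, a ribosomal protein with an ETS motif (13.7).

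Enhancers were assigned to gene lists if their centre lay within 10 kb of a gene start. Of 20464 genes with a start, 65.2% had an enhancer, with a median of 3.29-fold for the strongest of each gene, and 1.36% had one of 10-fold and over. Of 30 p53 target genes, 29 had an enhancer. The median of the strongest was 9.19-fold, 14 (46.7%) reached 10-fold, and in 15 the strongest enhancer held a p53 site with up to 2 mismatches, against 3.49% of all genes. The 4 highest were CDKN1A, RRM2B, MDM2 and GADD45A.

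At CDKN1A, 710 output fragments stood against a scaled input of 18.5, on closed chromatin at chr6:36643765-36645578, at an upstream alternative start and with a p53 site of 2 mismatches. RRM2B, a subunit of ribonucleotide reductase for DNA repair, had 409 against 12.5 in closed chromatin in its own intron, a fold of 30.4. MDM2 had 273 against 8.99 in open chromatin at chr12:69202377-69203162. GADD45A had 543 against 22 at chr1:68151973-68152914, a fold of 23.7, in its own intron and in open chromatin. All 4 stood far above the median of 47 output fragments in the list. Outside the list, the enhancer 30.4 kb upstream of MIR34A had 844 output fragments against 21.7, a fold of 37.2, with a perfect p53 site inside an exon of MIR34AHG, and it was open and in a vehicle ATAC-seq peak.

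The other p53 targets extended over a wide range. RPS27L had 21.8-fold, CCNG1 (cyclin G1) 16.7, SPATA18 15.3, TP53I3 13.6 and FAS, the death receptor, 10.7. At the low end, SESN2 had 2.53, TP53INP1 2.66 and FDXR 1.82, and ZMAT3 had none within 10 kb. RPS27L and TP53I3 held no p53 site within 2 mismatches at their strongest summit, which says only that these letters are not in that window. The genes of this paragraph were chosen after their values were seen.

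**Figure D5:**
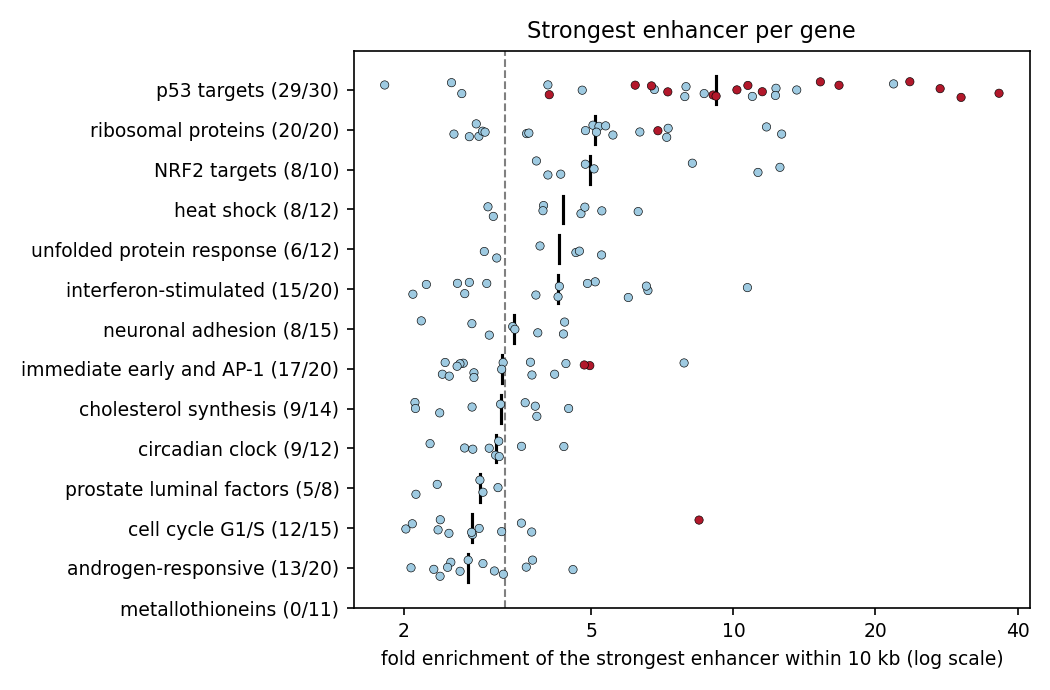
Fold enrichment on a log scale of the strongest enhancer within 10 kb of each gene in 14 gene lists, with the number of genes with an enhancer and of all genes in parentheses. Black bars are medians, red points hold a p53 site with up to 2 mismatches, the dashed line is the median of 3.29 over all genes, and the p53 targets reach 36.6.

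Of 20 androgen-responsive genes, 13 (65%) had an enhancer within 10 kb, close to the 65.2% of all genes. The median was 2.74-fold, below the 3.29 of all genes, and none of the 20 reached 5-fold, where 8.70% of all genes did. KLK3, which encodes prostate-specific antigen, had 60 output fragments against 28.4, a fold of 2.07. KLK2 had none within 10 kb. Both were chosen as prostate markers with their values known. ABCC4, a drug efflux transporter, stood highest, at 4.57 from 48 against 9.72, and TMPRSS2, a serine protease of the prostate, followed at 3.75 from 77 against 19.8, with HERC3 at 3.64 and FKBP5 at 3.25. The cells were in medium depleted of steroids, and the part of the medium in these values was not tested. Prostate luminal factors had an enhancer in 5 of 8 genes, with a median of 2.90.

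Housekeeping and stress genes stood between these. All 20 ribosomal protein genes had an enhancer, with a median of 5.08, and 11 (55%) reached 5-fold, against 8.70% of all genes. The highest were RPL5 at 12.7, RPL18 at 11.8, RPL34 at 7.27 and RPL4 at 7.22, and in 16 of 20 the strongest enhancer was open. Over all genes with an enhancer, the strongest was open in 5614 of 13340. Of 10 NRF2 targets, which encode antioxidant enzymes, 8 had an enhancer, with a median of 4.96, and in all 8 the strongest was open. NQO1 stood at 12.5 with the AP-1 word printed above and TXNRD1 at 11.3. HMOX1 stood at 8.18 with an AP-1 word 8.85 kb upstream of its start. SRXN1 stood at 5.06 from an enhancer 8.84 kb upstream of its start, in an exon of SCRT2. An enhancer was present in 8 of 12 heat shock genes (66.7%) and 6 of 12 genes of the unfolded protein response (50%), close to and below the 65.2% of all genes. The medians of the strongest were 4.36, led by DNAJB1 at 6.28, and 4.26, led by PDIA4 at 5.25. The DNAJB1 enhancer lies 6.91 kb upstream of its start.

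Interferon-stimulated genes had enhancers at their starts although their transcripts were low. In 15 of 20 (75%) an enhancer was present, against 65.2% of all genes. The median of the strongest was 4.25-fold, while the median expression of the list was 2.09 log2 CPM. IFIT2 had 116 output fragments against 9.93, a fold of 10.7, IFIT1 71 against 9.93 and 6.59, ISG15 206 against 30.7 and 6.54, and IFIT3 62 against 9.52 and 5.99. Each of these summits lay within 55 bases of a start. The ISRE was in 5 of the 15 strongest enhancers, with a median of 5.99 against 2.88 for the other 10. Over all enhancers ISRE was in 3.79%, against 5.53% of the grid windows, so the list-wide share was not raised.

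The remaining lists with an enhancer had medians near or below the 3.29-fold of all genes, of which 65.2% had an enhancer. Immediate early genes had an enhancer in 17 of 20 (85%), with a median of 3.23. The highest were MAFF at 7.86, FOSL1 at 4.96, BATF at 4.83 and JUNB at 4.41. The enhancer counted for MAFF lies 5.18 kb downstream of its start and nearer to a start of PLA2G6. Cell cycle genes had 12 of 15 (80%) with a median of 2.79, led by PCNA, the replication clamp, at 8.45 with a p53 site of 2 mismatches. Circadian clock genes had 9 of 12 (75%) with 3.13, cholesterol synthesis genes 9 of 14 (64.3%) with 3.21, and neuronal adhesion genes 8 of 15 (53.3%) with 3.42. None of the 11 metallothionein genes had an enhancer within 10 kb, against 65.2% of all genes. Within 50 kb the shares were 18.2% and 96.2%. Genes that lie side by side share the same surroundings, so such counts need not be independent.

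The enhancers of the list were spaced closely in places. The median distance to the nearest other centre was 9.45 kb, and 52.0% had a neighbour within 10 kb and 2.56% within 1 kb. Linked at 10 kb, 45361 stood alone, 26492 were in pairs, and 11 groups had 10 or more. The group with most members had 13 enhancers, 10 of them open, in 62.7 kb on chromosome 19 around RRAS, a small GTPase, and IRF3, an interferon regulatory factor. Groups of 12 lay at TMEM88B on chromosome 1 (10 open, 43.9 kb) and at METTL9 on chromosome 16 (1 open, 77.3 kb). A group of 11 at ZNF750 on chromosome 17 had 5 open and a top fold of 5.90. These groups were of low fold, with medians between 2.45 and 3.08 in these 4.

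Open chromatin did not rise steadily with fold. Open enhancers were 16.2% of those under 3-fold, 8.35% from 3 to 5-fold, 17.8% from 5 to 10-fold, 20.1% from 10 to 20-fold and 12.8% at 20-fold and over. Vehicle ATAC-seq peaks overlapped 6.18%, 5.50%, 11.8%, 11.6% and 8.87% of the same classes, and peaks of TSA-treated cells overlapped 7.73%, 6.68%, 14%, 13.7% and 14.8%. At the open enhancers the median DNase I score was 0.0883, 0.140, 0.157, 0.120 and 0.0767 over the same classes, highest from 5 to 10-fold. The peaks come from 3 pooled libraries per condition, so the error of these shares is unknown. The 2 lists also differ in their number of peaks, and the part of that in the shares was not tested.

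The identity of the cells was checked in the expression table. The luminal prostate markers reported here stood between 4.41 (KLK2) and 11.17 (FOLH1) log2 CPM, with HOXB13 at 8.81 and KLK3 at 8.04. Of 6 markers of other cells, TP63 (-1.89), PTPRC (-1.89) and PECAM1 (-2.27) were low, whereas COL1A1 (6.77), KRT5 (6.23) and VIM (5.88) were not. Their part in the enhancer values was not tested, and the table is from cultures other than those electroporated.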

How the data were processed

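STARR-seq of LNCaP cells was used as 1 input library and 2 output replicates. Per the labels and the study's methods, paired-end reads were aligned to hg19 with Bowtie and kept at unique locations. Duplicates were collapsed with Picard within each indexing library, those shared between indexing libraries were kept, and MACS2 called peaks on the combined replicates at its defaults with a q-value under 0.05. For these tools a version is not given in the sources used here. Each enhancer has a deposited score, a deposited fold (ratio) of output to input with 1 added to both, and a deposited −log10 p-value and −log10 q-value. The open list also holds a deposited DNase I score, and the ATAC-seq peaks a deposited Fseq score. Of the authors' mRNA-seq table (TopHat, edgeR), only the deposited average log2 CPM was used. Its columns of fold changes and p-values, and a table of ATAC-seq differences, hold the authors' own comparisons and were left out.

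Output counts and scaled input were recovered from the fold and the Poisson p-value, and all recovered counts lay within 0.0410 of a whole number. On simulated data 100% of output counts and 100% of planted p53 sites were recovered. Windows of 300 bases at the summit, read from GRCh37, were searched for 27 motifs on both strands, as were 285841 grid windows spaced by 10 kb. Gene starts were 57563 starts of basic GENCODE transcripts without small RNAs, which covered 20464 of the 22336 genes of the mRNA-seq table, matched by symbol or RefSeq synonym. Named enhancers are the 10 of highest fold, the 5 of most output, the strongest with each motif, up to 4 per gene list and the 5 densest groups. Some items that this rule or the marker list names are not reported here. Others are marked in the text as chosen after their values were seen, and the printed sequences were chosen likewise. Members, motifs, classes and lists were chosen with earlier results of these data known, and no test was run. Alternatives covered the q-value, window, ranking, distance, overlap, pseudocount and input background. Python 3.11.15, numpy 2.4.6 and scipy 1.17.1 were used.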

Additional observations from a re-analysis of the deposited data

How the results depend on the processing

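No paired analysis was possible because the authors pooled both output replicates before calling peaks. For the same reason no replicate could be left out. A q-value under 1e-10 gave 35957 enhancers, an open share of 17.4%, a median of 3.92-fold, 8.45% within 1 kb of a gene start, 25.5% with a neighbour within 10 kb, overlaps of 9.51% with vehicle and 11.6% with TSA ATAC-seq peaks, and an enhancer for 86.7% of p53 targets and 38.1% of all genes. Ranking the top 203 by output fragments instead of fold lowered the share with a p53 site to 51.2% with up to 2 mismatches and 18.7% with an exact match, with GATA to 9.85% and with FOXA to 12.3%. Distances between nearest edges gave 54.2% with a neighbour. Requiring 50% coverage gave ATAC-seq overlaps of 5.49% and 6.94%. Within 50 kb, 96.2% of all genes had an enhancer. Of the 13 gene lists other than p53 targets, 9 had a higher share of genes with an enhancer within 50 kb, and 8 a lower share at a q-value under 1e-10, by more than the counting interval. A q-value under 0.01 kept 94372 enhancers, and no pseudocount gave a median of 3.23-fold. A window of 500 bases and leaving out enhancers at the genome background kept the shares of both p53 definitions, AP-1, GATA and FOXA at 20-fold and over within their counting intervals. Summit counts of 37 to 62 in the middle of the list limit what those folds can rank.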
